A study of Mus musculus with 10 samples.

Results

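H3K27me3 regions that were found in the R100 lymphoma line alone and that lay near a transcription start site (TSS) numbered 7870, out of 47264 regions over the 5 lines studied. They were chosen in 3 steps. Distinct peaks of all 5 lines were merged into regions wherever they shared at least 1 bp, regions with a peak in R100 and in no other line were kept, and of these the ones within 5 kb of the TSS of any mouse GENCODE gene were retained. Of all 25448 regions within 5 kb of a TSS, the R100-only regions made up 30.9%. Presence in R100 and absence from the other 4 lists are the selection itself, so R100 bases and the absence of overlapping peaks are given below as a description only. At the limit of the distance rule, the regions just inside were 4999 bp from the TSS of Acer1 and 4998 bp from that of Gm16481, and those just outside were 5001 bp from Gm11399 and from Ttll6.

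All lines descend from 1 B-cell lymphoma of an Eµ-Myc Cdkn2a-/- mouse of strain C57BL/6J, in which c-Myc is driven by an immunoglobulin heavy chain enhancer active in the B lineage and the Cdkn2a tumour suppressor locus is deleted; the parental line carries both alterations too. The parental line had no drug selection. R100, R500, R1000 and R4000 are its descendants, harvested as surviving sub-clones in sequence while the dose of mafosfamide, an alkylating agent that crosslinks DNA, was raised through 100, 500, 1000 and 4000 nM over 34 days. Chromatin was taken from lines grown without the drug, and 1 peak list per line was analysed. The age and sex of the mouse are not given in the labels, and a peak list holds no expression by which the B-cell label could be checked.

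H3K27me3 is set on histone H3 by Ezh2, the enzyme of polycomb repressive complex 2, and is associated with silent genes. In mammals the complex is found mainly at CpG islands, stretches of GC-rich DNA that keep their CpG dinucleotides and hold the TSSs of developmental regulators and of most housekeeping genes. At developmental regulators outside their tissue the mark typically forms wide domains, whereas the CpG islands of active housekeeping genes usually lack it.

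The lists differ in length, and this touches every count below. R100 has 25180 distinct peaks over 5036 kb and R500 has 21888, while the parental list has 10778, R1000 has 9595 and R4000 has 6820. Read depth is unknown, since the lists hold positions without counts. When each list was reduced to its 6820 widest peaks, R100-only regions were 1317 of 10409 regions near a TSS (12.7%), against 10.3% for the parental line, 10.2% for R500, 11.3% for R1000 and 14.1% for R4000, so R100 no longer held the largest share. The R4000 list is the shortest and was kept whole, narrow peaks included, whereas the narrowest R100 peak kept was 200 bp wide. The lines thus differ in the narrowest peaks kept in every comparison with lists of equal length below. In a bulk sample, a region marked in fewer cells and a region marked more weakly in every cell cannot be told apart.

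The sequences of 8 R100-only regions show the range of DNA that they cover. They are the named regions with the most and the fewest CpG dinucleotides per base among those of at most 300 bp that touch neither a UTR nor a noncoding exon, read from the mm9 genome in the direction of the gene, with each CpG in capitals. The first 4 are CpG-rich. Hnrnpab encodes a pre-mRNA binding protein, and its region, chr11:51419651-51419950, minus strand, starts 399 bp inside the gene and holds 44 CpGs. Mga encodes a Max partner of the Myc network, with 14 CpGs in 100 bp at chr2:119723301-119723400, plus strand. Nkx1-1, a homeobox gene, has 37 CpGs in 300 bp upstream of its TSS at chr5:33776751-33777050, minus strand. Cdc27, a subunit of the anaphase-promoting complex, has 28 CpGs in 250 intronic bp at chr11:104411401-104411650, minus strand.

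Hnrnpab: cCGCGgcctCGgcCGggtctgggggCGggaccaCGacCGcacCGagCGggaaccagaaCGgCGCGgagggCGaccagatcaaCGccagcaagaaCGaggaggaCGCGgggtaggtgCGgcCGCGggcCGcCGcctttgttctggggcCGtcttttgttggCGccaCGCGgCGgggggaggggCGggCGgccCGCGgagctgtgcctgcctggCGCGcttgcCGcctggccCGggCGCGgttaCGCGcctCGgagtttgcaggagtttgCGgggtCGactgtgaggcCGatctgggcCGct
Mga: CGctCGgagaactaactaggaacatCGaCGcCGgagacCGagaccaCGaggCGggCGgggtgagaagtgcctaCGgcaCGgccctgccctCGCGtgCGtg
Nkx1-1: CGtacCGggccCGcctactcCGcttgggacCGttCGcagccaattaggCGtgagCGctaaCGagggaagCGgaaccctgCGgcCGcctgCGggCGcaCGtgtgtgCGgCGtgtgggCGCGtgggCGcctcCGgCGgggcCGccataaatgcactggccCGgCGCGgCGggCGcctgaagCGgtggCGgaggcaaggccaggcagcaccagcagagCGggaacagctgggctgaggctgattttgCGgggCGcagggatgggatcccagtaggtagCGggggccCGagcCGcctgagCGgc
Cdc27: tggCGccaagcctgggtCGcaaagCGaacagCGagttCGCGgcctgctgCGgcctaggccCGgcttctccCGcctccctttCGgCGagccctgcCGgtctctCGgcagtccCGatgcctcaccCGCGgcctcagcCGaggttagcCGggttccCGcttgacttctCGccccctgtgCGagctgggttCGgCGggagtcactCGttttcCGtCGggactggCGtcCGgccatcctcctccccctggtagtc

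The CpG-poor regions follow. Sp7 encodes an osteoblast transcription factor, and its region at chr15:102196451-102196550, minus strand, is intronic. Aldh1a3, a retinaldehyde dehydrogenase, has its region upstream of the TSS at chr7:73573351-73573500, minus strand. Both hold 0 CpGs. Eif3d, a translation initiation subunit, has 1 CpG in 250 intronic bp at chr15:77800401-77800650, minus strand. Dhh, the desert hedgehog ligand, has 2 CpGs in 300 bp upstream at chr15:98729651-98729950, minus strand. GC content ran from 49.0% at Dhh to 74.7% at Hnrnpab.

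Sp7: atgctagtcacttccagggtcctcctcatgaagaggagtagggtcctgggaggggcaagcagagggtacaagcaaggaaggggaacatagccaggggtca
Aldh1a3: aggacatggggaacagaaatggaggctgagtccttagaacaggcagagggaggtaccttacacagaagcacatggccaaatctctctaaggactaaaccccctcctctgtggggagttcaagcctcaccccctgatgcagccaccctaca
Eif3d: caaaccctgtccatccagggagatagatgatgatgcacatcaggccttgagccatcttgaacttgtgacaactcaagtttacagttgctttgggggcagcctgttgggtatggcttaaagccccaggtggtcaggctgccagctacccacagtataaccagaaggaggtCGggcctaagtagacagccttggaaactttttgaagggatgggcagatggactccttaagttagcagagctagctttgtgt
Dhh: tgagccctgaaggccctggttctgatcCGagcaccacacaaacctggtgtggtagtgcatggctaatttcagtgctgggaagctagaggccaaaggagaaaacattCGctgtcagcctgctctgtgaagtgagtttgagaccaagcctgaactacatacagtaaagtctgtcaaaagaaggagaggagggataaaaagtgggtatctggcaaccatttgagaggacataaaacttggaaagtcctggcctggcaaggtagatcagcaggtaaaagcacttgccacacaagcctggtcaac

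The regions were narrow, and more of them were centred downstream of the TSS than upstream. Their median width was 100 bp, 3196 (40.6%) were a single 50-bp bin of the peak calling, 2854 were 100 bp and 21 were 500 bp or wider. The 1371 regions near a TSS that all 5 lines share had a median width of 1000 bp. Regions near a TSS found in R500 alone were as narrow, with a median of 100 bp and 42.9% of them a single bin. Those found in the parental line alone had a median of 50 bp and 54.8% a single bin. Narrowness was thus not particular to R100-only regions. Among R100-only regions, 4333 (55.1%, Wilson 95% interval 54.0 to 56.2%) were within 1 kb of the TSS, and the median distance was 817 bp. The share within 1 kb was 44.8% (43.5 to 46.1%) for the 5580 regions found in R500 alone, 61.9% (59.8 to 63.9%) for the 2127 found in R100 and R500 alone, 74.3% (71.9 to 76.6%) for those in all lines and 22.5% (20.6 to 24.5%) for the 1734 found in the parental line alone. It was 48.8% for the 1616 found in R1000 alone and 63.1% for the 1091 found in R4000 alone, so R4000-only regions lay closer to the TSS than R100-only regions. With lists of equal length the share was 64.0% for R4000-only regions, 62.4% for R100-only, 52.8% for R1000-only, 50.9% for R500-only and 24.95% for parental-only regions, in the same order of lines. These intervals cover the counting of regions only, and the single list of each line allows no test.

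R100-only regions rarely covered the TSS itself. Only 2.11% did, against 27.6% of the regions in all lines, which were also much wider. The share was 5.50% for regions in R100 and R500 alone, 1.42% for R500-only and 0.231% for parental-only regions. Rarely covering the TSS was thus not particular to R100-only regions. Their centres lay downstream of the TSS in 62.8%, and the fullest 250-bp bin was 250 to 500 bp inside the gene, with 975 regions (12.4%). R500-only regions had the same fullest bin, with 8.37% of them, while regions in all lines peaked at 500 to 750 bp and parental-only regions at 1250 to 1500 bp upstream. By the annotation at their centres, 44.1% of R100-only regions were intronic, 30.8% were outside genes, 10.1% were in coding exons and 9.21% in 5′ UTRs. The nearest gene was protein-coding for 6683 (84.9%). Of all 25448 regions near a TSS, 59.5% were centred downstream, 44.0% were intronic and 34.1% were outside genes. Their nearest gene was protein-coding for 84.3%. Most of these traits of R100-only regions were thus near the level of all regions near a TSS.

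**Figure D1:**
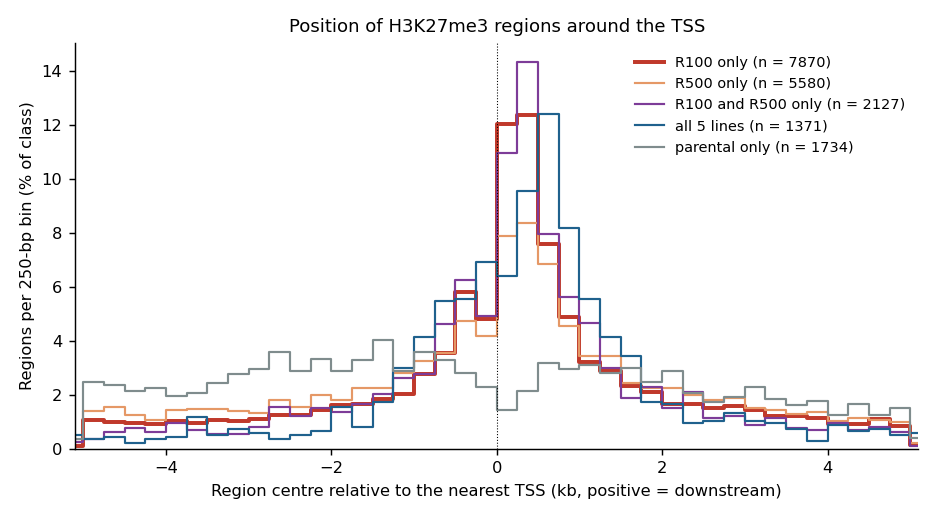
Share of regions of each class in 250-bp bins (y axis, % of class) by the position of the region's centre relative to the nearest TSS (x axis, kb, positive values inside the gene). R100-only regions (red) are most frequent 250 to 500 bp inside the gene, at 12.4% per bin, whereas parental-only regions (grey) are spread over the whole 5 kb.

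Sequence was not used in the selection, and R100-only regions near a TSS were richer in GC and CpG than R500-only, parental-only and distal R100-only regions. In the 500 bp around their centres the median GC content was 54.4% and the ratio of observed to expected CpGs was 0.44. For the 7089 R100-only regions farther than 5 kb from any TSS the values were 49.6% and 0.23, for R500-only regions near a TSS 51.4% and 0.32, and for parental-only regions 44.8% and 0.21. Windows with at least 50% GC and a CpG ratio of at least 0.6, called CpG-island-like here, were found at 2723 R100-only regions (34.6%, 33.6 to 35.7%). The same share was 23.2% (22.1 to 24.3%) for R500-only regions, 39.5% (37.4 to 41.6%) for R100 and R500 alone, 44.4% (41.8 to 47.1%) for all lines, 2.65% (1.99 to 3.52%) for the parental line alone and 4.56% (4.10 to 5.07%) for the distal R100-only regions. Windows centred on every TSS of a protein-coding gene reached 47.6%, so R100-only regions were below the level of these TSSs. Windows centred on the TSS of every GENCODE gene reached 32.3%, and all 25448 regions near a TSS 30.2%. R100-only regions were above both. Regions found in R1000 or R4000 alone were not compared in sequence.

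Much of this followed distance. Among R100-only regions 1 to 500 bp from the TSS 66.4% were CpG-island-like, against 33.0% at 501 to 1000 bp, 12.9% at 1001 to 2000 bp and 6.91% beyond. At each of these distances R500-only regions were lower, with 57.3%, 26.1%, 7.87% and 4.52%. CpG-island-like R100-only regions were within 1 kb of the TSS in 88.1% of cases and had a protein-coding nearest gene in 92.4%.

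**Figure D2:**
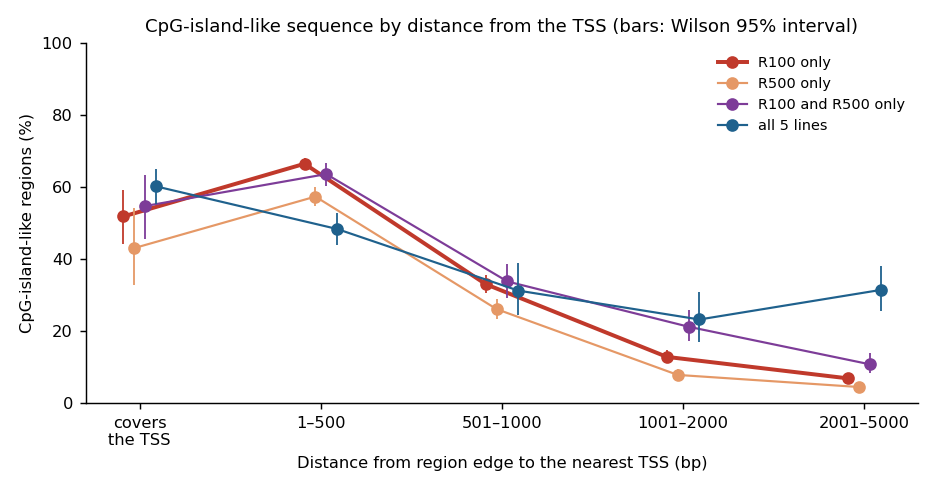
CpG-island-like share of regions (y axis, %) by the distance of the region's edge from the nearest TSS (x axis, bp), for 4 classes of regions, with Wilson 95% intervals as vertical bars. The share among R100-only regions (red) is 66.4% at 1 to 500 bp and 6.91% at 2001 to 5000 bp.

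Although no other line overlapped these regions, many had a peak of another line close by. R500 had a peak within 1 kb of 3759 R100-only regions (47.8%, 46.7 to 48.9%), R1000 of 1778 (22.6%), the parental line of 1414 and R4000 of 1248 (15.9%). Any of the 4 lines did so at 4397 (55.9%), and 857 touched such a peak with no base between. For the distal R100-only regions the share with any other line within 1 kb was 38.3%. The order of the lines follows the lengths of their lists except that the parental list is longer than that of R1000. R500 was the only other line within 1 kb at 1563 regions (19.9%), and all 4 other lines were there at 426 (5.41%).

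The remaining 3473 regions (44.1%) had no other line within 1 kb, and 2266 (28.8%) had none within 5 kb. The isolated regions lay closer to the TSS. Of those with no other line within 5 kb, 73.0% were within 1 kb of the TSS and 50.6% were CpG-island-like, against 51.7% and 30.9% of the 4397 with another line within 1 kb. They were also more often within 1 kb of the TSSs of at least 2 genes, at 15.4% against 7.80%. Width did not follow the same order, since 46.1% of the regions with no other line within 1 kb were 50 bp wide against 36.3% of the others.

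**Figure D3:**
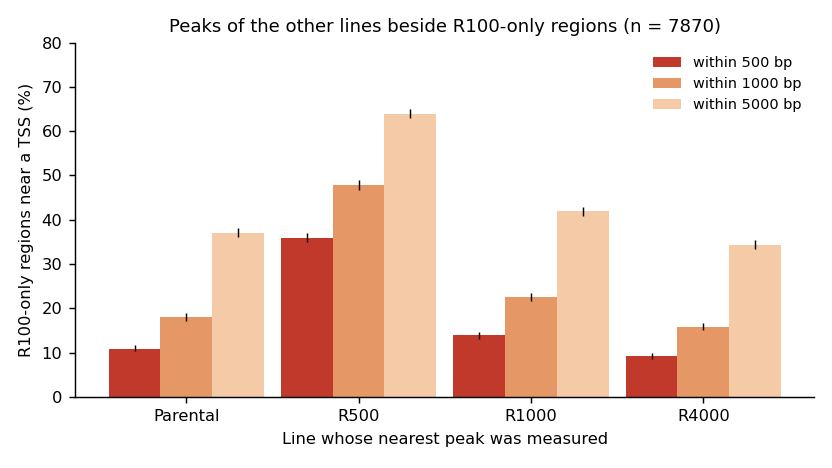
Share of the 7870 R100-only regions near a TSS (y axis, %, from 0) that have a peak of the parental, R500, R1000 or R4000 line (x axis) within 500, 1000 or 5000 bp, with Wilson 95% intervals as error bars. R500 stands highest at each distance, with 47.8% within 1000 bp.

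The widest R100-only regions were at genes of unlike function. The widest, 750 bp at chr6:88146251-88147000, is in an intron of Gata2, a transcription factor of blood stem and progenitor cells, and touches an R500 peak. Within 5 kb of the Gata2 TSS the peak bases were 150, 3801, 2785, 550 and 335 bp from parental to R4000, so this region extends a domain that other lines hold in part. Bicd1, a dynein adaptor, had a 600-bp region across its TSS (chr6:149357151-149357750) that also touches an R500 peak, with 150, 600, 350, 50 and 0 bp in the same order of lines. Megf9, a membrane protein with EGF-like repeats, had 600 bp 229 bp inside the gene (chr4:70195201-70195800), and the only other bases within 5 kb were 50 bp in R500.

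Porcn, the acyltransferase that lipidates Wnt proteins, had 550 bp across the TSS (chrX:7783151-7783700). Within 5 kb of the Porcn TSS R500 was the only other line with peak bases, with 100 bp. Apoh, a plasma glycoprotein, had 550 bp ending 18 bp upstream of its TSS (chr11:108204101-108204650), beside 100 bp each in the parental line, R500 and R1000. Nipal1, a magnesium transporter, had 550 bp 166 bp inside the gene (chr5:73039201-73039750), with 150 bp of R500 nearby. Also among the 10 widest were regions of 650 bp at 1700011F03Rik (chr6:70871451-70872100), 650 bp at the noncoding Gm16105 (chr10:80926451-80927100) and 600 bp at AL731857.1 (chr2:152594951-152595550), annotated as a miRNA gene, at 2530, 2547 and 3075 bp from the TSS.

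By gene, R100-only regions were within 5 kb of the TSS of 6935 GENCODE genes. Among 22367 protein-coding genes, 5551 (24.8%) had a region within 5 kb and 3755 (16.8%) had a region within 1 kb. Of the 5551, 2061 (37.1%) had no peak of any other line within 5 kb, while 54.4% also had an R500 peak there, 34.7% an R1000 peak, 29.2% an R4000 peak and 28.9% a parental peak. The most R100 bases with none in another line were 600 bp at AL731857.1, 600 bp at G3bp1, which nucleates stress granules, 600 bp shared by the divergent genes Glt1d1 and Slc15a4, the latter a lysosomal transporter of histidine, and 550 bp at Cox6c, a subunit of cytochrome c oxidase.

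Several genes held many separate R100-only regions. Of the protein-coding genes 572 had at least 3 within 5 kb. The homeobox gene Nkx1-1, the posterior Hox gene Hoxd11 and Smtnl2, of the smoothelin family, had 8 each. At Nkx1-1 the peak bases within 5 kb were 100, 1150, 800, 150 and 0 bp from parental to R4000. At Hoxd11 they were 150, 2202, 1501, 450 and 100 bp in that order, and at Smtnl2 0, 1200, 650, 0 and 0 bp. R500 was thus the next highest line at all 3.

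The forkhead gene Foxb1, the Notch inhibitor Nrarp, the noncoding Nkx2-2as and the microvillar cadherin Cdhr5 had 7 regions each. Foxb1 had 1947 bp in R100, 1100 in R500 and 100 in parental, with 0 in both R1000 and R4000. Pdgfra, a growth factor receptor of mesenchyme, Tbx5, a regulator of heart and forelimb, and Enpp7, an intestinal sphingomyelinase, had 6. At Tbx5 the lines held 0, 1500, 400, 400 and 0 bp. Reads carry no gene strand in this assay, so regions at Nkx2-2as cannot be told from regions at its neighbour on the opposite strand.

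The share of genes with an R100-only region was counted over 32 gene lists, and the lists differed in where the regions lay. Near splicing, proteasome and respiratory chain genes the regions were close to the TSS, and more of these genes than of all protein-coding genes had no other line there. Near homeobox genes they were mostly more than 1 kb from the TSS and beside peaks of other lines. For each list the share of genes with a region within 1 kb is given next to the 16.8% of all protein-coding genes. The share within 5 kb compares with 24.8%. Of the 3755 protein-coding genes with a region within 1 kb, 1895 (50.5%) had no other line within 1 kb. Any peak of R100 lay within 1 kb of the TSS of 26.1% of protein-coding genes, of R500 at 19.5%, of R1000 at 11.0%, of R4000 at 9.80% and of the parental line at 6.77%. Regions found in R500 alone were within 1 kb of 9.81% of them. The lists group genes by function or by symbol, overlap in part and were chosen with earlier results of these data known, so no test was attached to them.

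**Figure D4:**
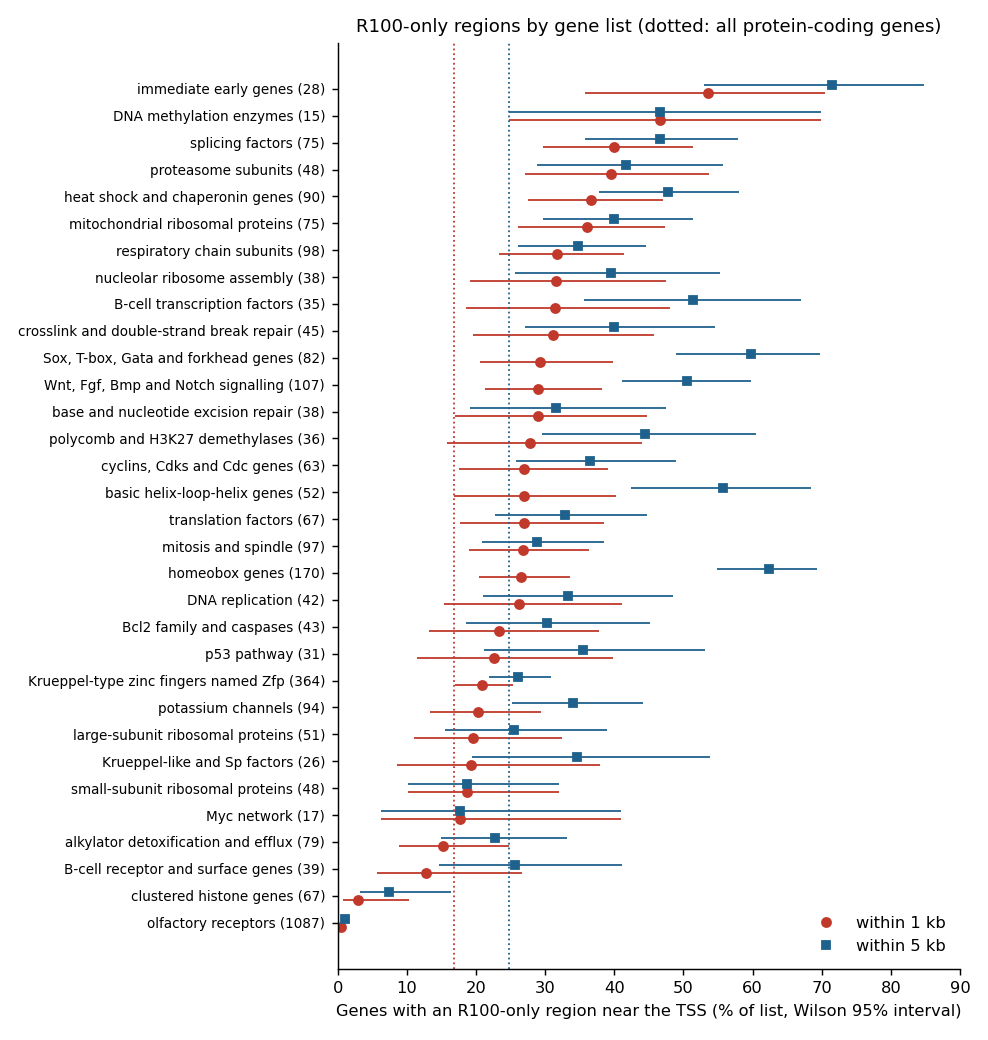
Share of the genes of each list (x axis, %) that have an R100-only region within 1 kb (red circles) or 5 kb (blue squares) of the TSS, with Wilson 95% intervals, for 32 lists (y axis, number of genes in brackets). Dotted lines mark all protein-coding genes, 16.8% within 1 kb and 24.8% within 5 kb; homeobox genes reach 26.5% within 1 kb and 62.4% within 5 kb.

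Splicing factors had an R100-only region within 1 kb at 30 of 75 genes (40.0%, 29.7 to 51.3%). Of the 30 genes, 19 (63.3%, against 50.5% of all such protein-coding genes) had no other line within 1 kb. R500-only regions were at 11 of the 75 (14.7%, against 9.81%). Srsf10, an SR protein, had 212 bp of R100 within 1 kb, Prpf19, a ubiquitin ligase of the spliceosome, had 250 bp, and Prpf18, a factor of the second splicing step, had 200 bp, all with 0 bp in the other 4 lines. Hnrnpab, printed above, had 300 bp in R100, 100 in R4000 and 0 in the parental line, R500 and R1000. Any R100 peak within 1 kb was found at 58.7% of the 75 genes, R500 at 32.0%, R4000 at 24.0%, R1000 at 14.7% and parental at 6.67%. The first 4 are above the shares of all protein-coding genes (26.1%, 19.5%, 9.80% and 11.0%), and the parental share is near its 6.77%.

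Proteasome subunits had one within 1 kb at 19 of 48 genes (39.6%, with an upper limit of 53.7%), 13 of them (68.4%) with no other line there. Of the 24 regions near these genes, 23 were within 1 kb of the TSS, at a median of 262 bp, and 79.2% were CpG-island-like. Psma7, a subunit of the core ring, had 350 bp of R100 and Psmb9, a catalytic subunit of the immunoproteasome, had 250 bp, both with 0 bp in every other line. Psmb7 had 250 bp and Psmd3, a subunit of the cap, had 200 bp in R100, with 100 in R500 at each.

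Mitochondrial genes were also above the background in share, but the 2 lists differed in the company of other lines. With no other line there, the ribosomal list was near the 50.5% of all such genes and the respiratory chain list was above it. R500-only regions were at 18.7% of mitochondrial ribosomal and 11.2% of respiratory chain genes, against 9.81% of protein-coding genes. Mitochondrial ribosomal proteins had a region within 1 kb at 27 of 75 genes (36.0%, 26.1 to 47.3%) and respiratory chain subunits and assembly factors at 31 of 98 (31.6%, 23.3 to 41.4%), and 15 of the 27 and 25 of the 31 had no other line within 1 kb (55.6% and 80.6%). Cox6c had 550 bp and Atp5e, of the ATP synthase, had 300 bp in R100 alone. Ndufaf3, an assembly factor of complex I, had 450 bp in R100, 200 in R500 and 150 in R1000. Ndufs1, the largest complex I subunit, shares 2 regions with the divergent translation factor gene Eef1b2, and had 596 bp in R100, 246 in R500 and 50 and 100 in parental and R1000. Mrpl44 had 250 bp in R100 alone, while Mrpl18 shares a 250-bp region with the chaperonin gene Tcp1, Mrpl49 shares 2 regions with the ribosomal protein gene Fau, and Mrps18b had 534 bp in R100 and 284 in R500.

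Genes for protein folding and ribosome assembly were also above the background of 16.8% in count. Heat shock and chaperonin genes had a region within 1 kb at 33 of 90 (36.7%, 27.4 to 47.0%), and 12 of the 33 (36.4%, below the 50.5% of all such genes) had no other line there. Dnajc30, a J-domain protein, had 300 bp in R100 alone, Tcp1 had 467 bp in R100 and 50 in R4000, Hspd1, the mitochondrial chaperonin, had 300 bp in R100 and 50 in R500, and the testis gene Hspa2 had 113 bp in R100 and 100 in R1000. Nucleolar factors of ribosome assembly had one at 12 of 38 (31.6%, 19.1 to 47.5%), with 200 bp at Ddx18 and 150 bp each at Ebna1bp2, Nhp2 and Rrp1, in R100 alone. Translation factors and their regulators, grouped by the symbols Eef and Eif, had one at 18 of 67 (26.9%, 17.7 to 38.5%).

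Cytoplasmic ribosomal proteins were different in the company of the other lines. The small-subunit list, which includes genes with pseudogene-like symbols, had a region within 1 kb at 9 of 48 (18.8%, 10.2 to 31.9%) and the large-subunit list at 10 of 51 (19.6%, 11.0 to 32.5%), near the background, and another line had a peak within 1 kb at all but 1 of these genes. At Rps12 the peak bases within 1 kb were 100, 750, 650, 336 and 450 bp from parental to R4000. Rps3 had 150, 403, 550, 450 and 350 bp in the same order. Rps28 had 150 bp in R100 and 50 in R500. In the large subunit, Rpl7a had 650 bp in R100, 500 in R500 and 300 in R1000, Rpl35a had 250, 100 and 50 bp in those lines, Rpl26 had 250 bp in R100, 150 in R500 and 100 in parental, and Rpl14 had 200 bp in R100, 100 in R4000 and 50 in parental.

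Genes of DNA repair are of interest because mafosfamide crosslinks DNA. Crosslink and double-strand break repair genes had a region within 1 kb at 14 of 45 (31.1%, 19.5 to 45.7%). Brip1, the Fanconi helicase, had 400 bp in R100 and 50 in R500. Rad50, of the MRN complex, had 250 bp in R100 and 50 in R1000, and Brca1 had 100 bp and 50 bp in the same lines. The checkpoint kinase gene Chek1 had 100 bp in R100 alone. The parental line had no peak within 1 kb at any of the 45 genes, R500 had one at 8 (17.8%), R1000 at 3 (6.67%) and R4000 at 4 (8.89%). The shares of all protein-coding genes are 6.77%, 19.5%, 11.0% and 9.80%. For any peak, only the R100 share, 37.8% against 26.1%, was above its background. R500-only regions were at 5 of the 45 genes (11.1%), near their background of 9.81%. R1000-only and R4000-only regions were at 3 genes each (6.67%, against 3.37% and 3.15%). The parental line had none. With lists of equal length R4000-only regions were at 4 genes (8.89%, background 4.25%) and R100-only regions at 3 (6.67%, background 3.53%). These counts are too small to rank the lines.

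Base excision, nucleotide excision and mismatch repair genes had one at 11 of 38 (28.9%, 17.0 to 44.8%), and 10 of the 11 had no other line within 1 kb. Msh3, a mismatch recognition subunit, had 300 bp and the exonuclease gene Exo1 had 250 bp. The transcription-coupled repair gene Ercc8 and the glycosylase gene Neil1 had 100 bp each, and these 4 genes had 0 bp in the other lines. Regions at Ercc8 and at Xpc, the damage sensor, are shared with the adjacent genes Ndufaf2 and Lsm3, so these regions cannot be assigned to one gene of the pair.

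Cell-division genes gave similar counts. Cyclin, Cdk and Cdc genes had a region within 1 kb at 17 of 63 (17.6 to 39.0%), replication factors at 11 of 42 (26.2%, 15.3 to 41.1%) and genes of mitosis and spindle, among them every Kif gene, at 26 of 97 (26.8%, 19.0 to 36.4%). R500-only regions were at 15.9%, 11.9% and 22.7% of these lists, against 9.81% of protein-coding genes. Shares above background were thus not particular to R100-only regions. Cdc20, the activator of the anaphase-promoting complex, had 450 bp and Aurkb, the Aurora B kinase, had 400 bp in R100 alone. Ccnj had 250 bp in R100 alone, while Cdc27 had 250 bp and Ccnf 250 bp in R100 with 100 and 50 bp in R500. Among replication genes, the helicase subunits Mcm3, Mcm2 and Mcm5 had 200, 100 and 100 bp of R100 within 1 kb and 0 bp of any other line. At Rpa3, of the single-strand binding complex, R500 with 350 bp exceeded R100 with 300 bp. The centromere gene Cenpt had 250 bp in R100 alone, Mad2l2 had 200 bp in R100, 350 in R500 and 50 in parental, and Kif26a had 746 bp in R100 and 705 in R500.

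Immediate early genes, which cells switch on within minutes of a stimulus or stress, had the highest share of the 32 lists, with a region within 1 kb at 15 of 28 (53.6%, 35.8 to 70.5%) and within 5 kb at 20 (71.4%). Peaks of other lines were frequent there too: within 1 kb, any R100 peak was found at 78.6% of the genes, R500 at 64.3%, R1000 at 46.4%, R4000 at 42.9% and parental at 35.7%. Each is above the share of all protein-coding genes (26.1%, 19.5%, 11.0%, 9.80% and 6.77%). Ddit3, which encodes the stress factor CHOP, had 300 bp in R100 alone. Maff, a small Maf protein, had 500 bp in R100, 100 in R1000 and 50 each in R500 and R4000. The phosphatase gene Dusp2 had 200 bp in R100 and 95 in R500, and the zinc-finger gene Egr4 had 368, 218 and 50 bp in R100, R500 and R1000. None of these 4 genes had a parental peak within 1 kb.

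B-cell transcription factors had a region within 1 kb at 11 of 35 (31.4%, 18.6 to 48.0%) and within 5 kb at 18 (51.4%). Id3, an inhibitor of E proteins such as E2a, had a 400-bp region in R100 with 0 bp of other lines within 1 kb. Irf4 and Irf8, factors of germinal centre and plasma cell differentiation, had 350 and 300 bp in R100 and 100 each in R500. Bcl11a, a factor of early lymphoid development, had 156 bp in R100 and 100 in R4000. Tcf3, which encodes E2a, had 200 bp in R100 and 59 in R500, of which 1 R100-only region was 50 bp wide. Ebf1, Foxo1 and Pou2f1 each had 50 bp and Runx1 100 bp within 1 kb, with 0 bp in other lines there. Within 5 kb R500 had 350 bp at Ebf1, 100 bp at Foxo1 and 50 bp at Id3. B-cell receptor and surface genes had one at 5 of 39 (12.8%, 5.60 to 26.7%), below the background in count, with 150 bp at the pre-B receptor gene Vpreb1 and 50 bp at the kinase gene Btk in R100 alone; Cd37 and Cd81 had 150 and 250 bp in R100 and 450 and 100 bp in R500.

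Genes that write, read or remove epigenetic marks had regions as well. Enzymes and partners of DNA methylation had one within 1 kb at 7 of 15 (46.7%, 24.8 to 69.9%). The maintenance methyltransferase gene Dnmt1 had 300 bp in R100 and 50 in R500, its partner gene Uhrf1 had 150 bp in R100 and 100 in R1000, Uhrf2 had 500, 403 and 200 bp in R100, R500 and R1000, and the de novo methyltransferase gene Dnmt3b had 400, 250 and 300 bp in R100, R500 and R4000. Regions found in R500 alone were also within 1 kb of 7 of these 15 genes, where the share of protein-coding genes is 9.81%. Polycomb and H3K27 demethylase genes had an R100-only region at 10 of 36 (27.8%, 15.8 to 44.0%). Phc2, a subunit of polycomb repressive complex 1, had 400 bp and Asxl1, of the histone H2A deubiquitinase, 200 bp in R100 alone, and Cbx6 had 100 bp in R100 and in R500. At Cbx8 the parental line had 383 bp, R100 633 bp, R500 533 bp, and R1000 and R4000 483 bp each.

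Homeobox genes had the most regions of the 32 lists, and these were farther from the TSS. They had one within 5 kb at 106 of 170 (62.4%) but within 1 kb at 45 (26.5%, 20.4 to 33.6%). Of the 245 regions near homeobox genes, 59 (24.1%) were within 1 kb, the median distance was 2295 bp and 37 (15.1%) had no other line within 1 kb. For splicing factors the corresponding values were 76.7% within 1 kb, a median of 378 bp and 60.5% with no other line within 1 kb. A peak of R100 lay within 1 kb of the TSS of 65.3% of homeobox genes, of R500 at 63.5%, of R1000 at 43.5%, of the parental line at 41.2% and of R4000 at 32.4%, each above the share of all protein-coding genes (26.1%, 19.5%, 11.0%, 6.77% and 9.80%). R500-only regions were within 1 kb of the same number of homeobox genes as R100-only regions, 45 of 170, with a lower background of 9.81% against 16.8%. Homeobox genes near R100-only regions were thus in large part genes that other lines mark too, and 5 of the 45 (11.1%, against 50.5%) had no other line within 1 kb.

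Lhx6, a regulator of interneurons, had 600 bp in R100, 150 in R500 and 100 and 100 in parental and R1000 within 1 kb. Hoxd9 had 400 bp in R100 and 350 in R500, and Nkx1-1 had 676, 250 and 76 bp in R100, R500 and R1000. The R100 bases were the highest at each of these 3 genes, which had been named by the width of their R100-only regions.

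Other regulator families were alike. Sox, T-box, Gata and forkhead genes had a region within 5 kb at 49 of 82 (59.8%) and within 1 kb at 24 (29.3%, 20.5 to 39.9%), basic helix-loop-helix genes at 29 (55.8%) and 14 (26.9%, 16.8 to 40.3%) of 52, and Wnt, Fgf, Bmp and Notch pathway genes at 54 (50.5%) and 31 (29.0%, 21.2 to 38.2%) of 107. Gata5, of endoderm and heart, had 500 bp in R100 and 250 in R500. Foxb1 had 350 bp of R100 within 1 kb and 0 bp of other lines, although other lines had peaks within 5 kb. Sox8 had 300, 1420, 1170, 550 and 150 bp from parental to R4000. Tbx15 had 50, 547, 404, 254 and 500 bp in that order.

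Among helix-loop-helix genes, Olig3, of the spinal cord, had 650 bp in R100, 350 in R500 and 200 in the parental line, the Notch target Hes7 had 706 bp in R100 and 806 in R500, the neuronal gene Neurod2 had 700 and 362 bp in these lines and Ascl2 had 482 and 82 bp. Of the secreted ligands, Wnt9a had a 500-bp R100-only region 271 bp from its TSS, with 880 bp in R100, 671 in R500 and 50 in parental within 1 kb. Dhh had 1080 bp in R100 and 1030 in R500. Fgf11 had 1592 and 1000 bp in the same lines, and Fgf16 had 168 and 150 bp.

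**Figure D5:**
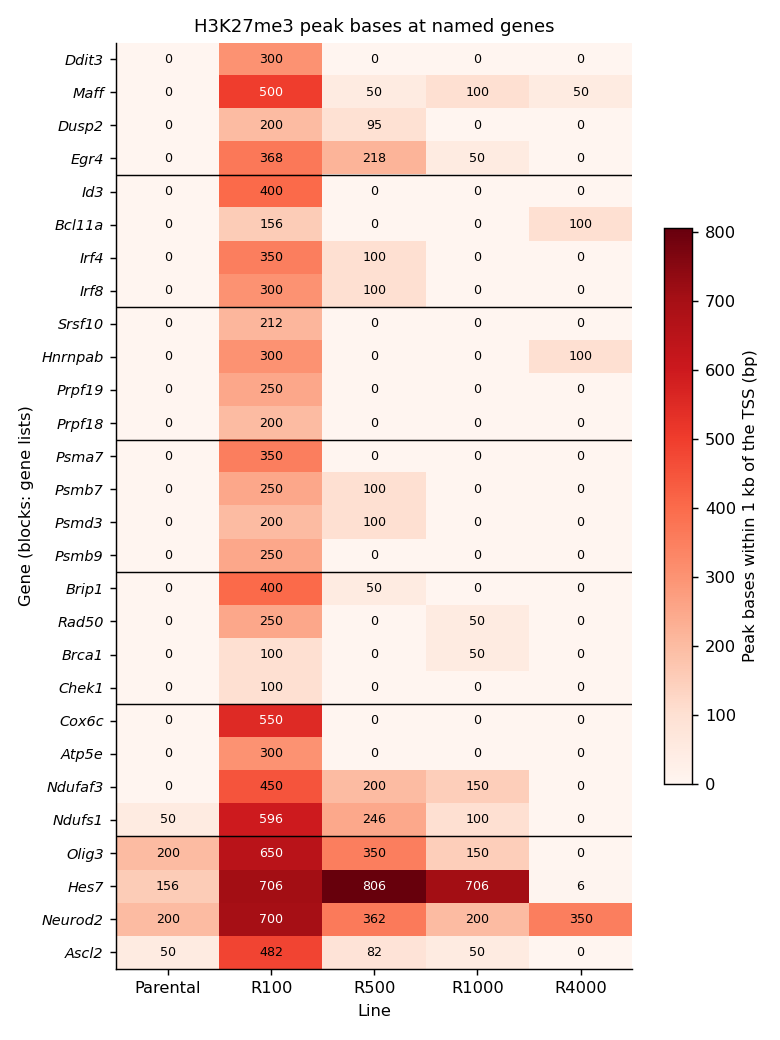
Peak bases within 1 kb of the TSS (colour and printed number, bp) in the 5 lines (x axis) at 28 genes (y axis), namely the 4 with the widest R100-only region within 1 kb in 7 of the lists; from the top the blocks are immediate early genes, B-cell transcription factors, splicing factors, proteasome subunits, crosslink and double-strand break repair, respiratory chain and basic helix-loop-helix genes. The genes were chosen for their R100-only regions, and R500 has bases at 14 of the 28.

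The lists were also counted with the 6820 widest peaks of each line, where an R100-only region lay within 1 kb of 3.53% of protein-coding genes, an R4000-only region at 4.25%, an R1000-only region at 2.75% and an R500-only region at 2.24%. For R100, homeobox genes had one at 11.2%, Sox, T-box, Gata and forkhead genes at 13.4%, immediate early genes at 14.3%, mitochondrial ribosomal proteins at 9.33%, respiratory chain genes at 8.16%, splicing factors at 6.67% and proteasome subunits at 6.25%. These shares rest on few genes, from 19 homeobox genes down to 3 proteasome subunits. R100 was below its background at Zfp genes, with 8 of 364, and had none at Krueppel-like and Sp factors, clustered histones and olfactory receptors. Another line reached or passed R100 in most of the 32 lists. R100 had the highest share only for the mitochondrial ribosomal, respiratory chain, cyclin, p53, Myc, immediate early, Wnt and Sox lists. R4000, whose list was kept whole, had regions of its own at 17.9% of translation factors and 13.2% of nucleolar factors. R100 had 5.97% and 5.26% there. R4000-only regions were at 13.3% of splicing factors and 8.33% of proteasome subunits, R1000-only regions at 14.6% of proteasome subunits and R500-only regions at 11.8% of homeobox genes.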

How the data were processed

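H3K27me3 ChIP-seq peak lists of 5 lines were analysed, and the 5 RRBS samples of the series were not analysed here. The authors called peaks by Poisson statistics on immunoprecipitated against input reads in consecutive genomic windows; the submitters' notes name Bowtie and mm9. The deposited values are positions in base pairs, 1-based and on a grid of 50 bp, without counts, scores or p-values. The study mentions biological replicates, but how they entered the 1 list per line, the peak threshold and the depth are not given in the sources used here. The R100 and R500 lists hold each entry 2 times, and distinct entries were used.

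Peaks were merged and measured against the 5′ ends of 37310 GENCODE genes of NCBIM37 (mm9) in Python 3.11.15 with numpy 2.4.6, pandas 2.3.3 and pysam 0.24.0. Intervals were computed with scipy 1.17.1 and figures drawn with matplotlib 3.10.9. Counts of union and R100-only regions were the same with bedtools 2.31.1, and the interval steps were tested on simulated data. Distance ran from the nearest edge of a region to the TSS. Gene shares used 22367 protein-coding genes on chromosomes 1 to 19, X and Y. GC and CpG were read in 500 bp, and E-boxes in 300 bp, around each centre.

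No test between lines was possible with 1 list each. Wilson 95% intervals cover counting only. Named were the 10 widest regions, the 5 genes with most R100 bases and no other line, up to 10 genes with most regions, the 4 genes per list with the widest region within 1 kb and the regions next to the limit of 5 kb. The regions and gene lists were chosen with earlier results of these data known; genes named beyond the rule were picked after their values had been seen. Of the genes that the rule named, 2 are not reported here. Alternatives changed the distance, the TSS set, the merging, the width and number of peaks, the definition of absence and the chromosomes.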

Additional observations from a re-analysis of the deposited data

How the results depend on the processing

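Of 59 values recomputed under 11 alternatives, 29 moved by less than the counting interval or, for counts, by less than 1.5 times. The 7870 regions and 6935 genes became 3027 and 3652 when intervals within 1000 bp were also merged, 2897 and 3033 with peaks of at least 150 bp, 1317 and 1543 with lists of equal length, and 3473 and 3814 when no other line was allowed within 1000 bp. The median width of 100 bp became 200 bp with peaks of at least 150 bp and 250 bp with lists of equal length. The share within 1 kb of the TSS, 55.1%, was 43.8% with a limit of 10 kb, 76.2% with 2 kb, 59.3% with every transcript, 60.1% with wider merging, 61.3% with wide peaks, 62.4% with equal lists, 59.3% with no other line nearby and 53.9% from the region's centre. The median GC content, 54.4%, was 53.2%, 56.4%, 54.0%, 55.2%, 56.4%, 56.8% and 55.0% under the same settings up to no other line nearby, 54.8% with protein-coding genes and 56% within the region itself. The share with another line within 1 kb, 55.9%, was 53.6% with 10 kb, 44.4% with wide peaks and 53.8% with equal lists; wider merging and no other line nearby fix this share by construction and gave no value. The cause of the other shifts was not tested. Unknown depth and 1 list per line limit every comparison of lines, and most regions are 1 or 2 bins of 50 bp wide.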

Other observations

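The remaining gene lists had shares from 0.460% to 23.3% within 1 kb, beside 16.8% of all protein-coding genes. Zinc-finger genes named Zfp, most of which encode Krueppel-type DNA-binding repressors, had one within 1 kb of the TSS at 76 of 364 genes (20.9%, 17.0 to 25.3%), and 47 of the 76 had no other line there, against 50.5% of all protein-coding genes with a region. Zfp358 had 350 bp in R100 alone, Zfp362 had 489 bp in R100, 200 in R500 and 150 in R4000, and Zfp706 had 300 bp in R100 and 50 each in R500, R1000 and R4000. Potassium channel genes had one at 19 of 94 (20.2%), and 7 of the 19 (36.8%, below the 50.5%) had no other line within 1 kb. Among these 7 were Kcnj5 with 200 bp, Kcnd3 with 248 bp and Kcnk5 with 97 bp in R100 alone within 1 kb. Genes of alkylator detoxification and efflux had one at 12 of 79 (15.2%, 8.91 to 24.7%). Aldh1b1, an aldehyde dehydrogenase, had 200 bp in R100 alone, Abcb9 had 200 bp in R100 and 50 each in R500 and R1000, and Aldh1l2 had 900 bp in R100, 1000 in R500 and 100 in parental.

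The p53 pathway had a region within 1 kb at 7 of 31 genes (22.6%) and the Bcl2 and caspase families at 10 of 43 (23.3%). No other line lay within 1 kb at 1 of the 7 and at 3 of the 10. The survival gene Mcl1 had 343 bp and the apoptosome gene Apaf1 150 bp in R100 alone within 1 kb. Dusp4 had 151, 1051, 701, 50 and 301 bp from parental to R4000, and Sesn1 had 100 bp in R100 alone. In the Myc network the count was 3 of 17 (17.6%), with 581 bp in R100 and 50 in R500 at Mycn, 395, 851, 445, 545 and 195 bp from parental to R4000 at Mycl1, and 100 bp each in R100 and R1000 at Mga. Krueppel-like and Sp factors had one at 5 of 26 (19.2%). Clustered histone genes had one at 2 of 67 (2.99%, 0.822 to 10.2%) and olfactory receptors at 5 of 1087 (0.460%, 0.197 to 1.07%).

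By chromosome, R100-only regions made up from 49.4% (chromosome 13) to 59.3% (chromosome 11) of the R100 regions near a TSS on the autosomes and 65.6% on X, where there were 80 of 122. Regions per 100 genes ran from 12.2 on chromosome 14 to 32.2 on chromosome 11 and were 3.08 on X. The E-box CANNTG, the motif that E2a and other helix-loop-helix proteins bind, was present in 74.5% of the 300-bp windows of R100-only regions, against 74.2% of all regions near a TSS and 72.2% of windows centred on every TSS. Its form CAGGTG was present in 26.7%, against 24.98% of all regions near a TSS and 21.6% of the windows on every TSS, CAGCTG in 19.1% against 16.9% and 16.7%, and CACGTG in 6.05% against 5.48% and 5.95%, on either strand, and these forms are included in the first count.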
